A study of Mus musculus with 7 samples.

Results

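Glycosyltransferases that build and cap the sugar chains of cell surface proteins and lipids were followed in mouse thymocytes. They were taken as all array probes outside the controls whose gene name began with St3gal, St6gal, St8sia, B3gnt, B4galt, B3galt, Galnt, Mgat, Gcnt or Fut followed by a digit. The rule used gene names and no measured value, and it gave 66 of the 27962 gene and transcript names on the array, read by 121 of 41174 probes. Of these, 105 probes of 63 genes were bright enough to be tested, among 34888 tested probes in all. The other 16 were not tested, and 12 of them were below background in both channels on every array.

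The study compared flow-sorted thymocytes of BALB/c mice on 7 Agilent 2-colour arrays. One DN4 population came from Rag2-/- mice carrying the KN6 γδ T cell receptor transgene and was labelled Lig+ (4 arrays), and another with the same transgene and Rag2 deletion was labelled Lig- (3 arrays); the labels do not spell out Lig. The control was DN3 cells sorted from non-transgenic Rag2-/- animals, whose RNA filled the second channel of every array. Thymocytes that lack CD4 and CD8 pass through a DN3 and then a DN4 stage. All populations thus lacked Rag2, so that the DN3 cells cannot rearrange receptor genes of their own and the DN4 cells carry 1 fixed receptor. The labels give no age, no number of animals and no promoter of the transgene, and they do not say whether the DN3 RNA was 1 pool. Per the series text the replicates are biological and each group has 1 dye swap; where arrays shared RNA the p-values would measure technical spread only.

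Glycans are made in the endoplasmic reticulum and Golgi by enzymes that each add 1 kind of sugar in 1 kind of linkage. Galnt enzymes start O-glycans and Gcnt enzymes branch them, Mgat enzymes branch N-glycans, B3gnt, B3galt and B4galt enzymes extend the chains, and fucosyl- and sialyltransferases finish them. In the thymus these ends are known to change as thymocytes mature, and they set which galectins, selectins and Siglecs can bind the cell.

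Each probe is a 60-base oligonucleotide, and several genes had more than 1. The first 30 bases are shown for the probes of 3 genes, because St6gal1 gave the highest ratios and because the probes of Gcnt1 and of Mgat5 did not read alike. Capitals mark the 10 bases that the printed stretches of the overlapping Gcnt1 probes share; the whole probes share 40 bases.
St6gal1 A_51_P101375, chr16:23016954-23017014, plus strand: gaagcctactcagttactctagagtaaagt
St6gal1 A_52_P161630, chr16:23018586-23018645, plus strand: tgtgggggagtaaattaataagtgtaatat
Gcnt1 A_52_P21550, chr19:17027225-17027284, minus strand: taaacatgtgtttgtgtcacgtatcgagta
Gcnt1 A_51_P119670, chr19:17029824-17029883, minus strand: ACTGCATGAAtcctacagaatatagttaca
Gcnt1 A_52_P227137, chr19:17029844-17029903, minus strand: aaagtcttcctgtcagggaaACTGCATGAA
Mgat5 A_52_P24696, chr1:127277768-127277827, plus strand: ccagagaatgacttacagtagctatagtgt
Mgat5 A_52_P502838, chr1:127350580-127358528, plus strand: acatgtgaaggcatgctgcagagaatcaac
Mgat5 A_51_P164347, chr1:127367074-127367133, plus strand: gcttagagcttagcccatgtattaaagaga
Positions are those of the whole probe in the scanner files, which do not name their genome build. The St6gal1 probes have starts 1632 bases apart. The Gcnt1 probe A_52_P21550 starts 2599 bases from A_51_P119670, and A_51_P119670 starts 20 bases from A_52_P227137. The Mgat5 probes start 72812 and 16494 bases apart in the order printed, and the position of A_52_P502838 runs over 7949 bases, more than its own length.

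Promoters are shown for St6gal1 and for 3 genes whose Lig- ratios lay above all Lig+ ratios (Galnt3, St3gal6 and Mgat5). Each line holds the 250 bases before the most upstream listed start, read on the strand of the gene, from the RefSeq table of GRCm38.p6. Capitals mark E-boxes (CANNTG), the motif bound by E proteins, transcription factors of early thymocytes.
St6gal1, chr16:23224490-23224739, plus strand: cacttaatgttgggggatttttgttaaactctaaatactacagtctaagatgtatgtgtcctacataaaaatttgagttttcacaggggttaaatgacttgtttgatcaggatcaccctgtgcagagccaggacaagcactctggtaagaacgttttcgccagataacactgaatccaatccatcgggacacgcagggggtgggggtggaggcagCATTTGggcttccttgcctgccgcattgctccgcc
Galnt3, chr2:66124794-66125043, minus strand: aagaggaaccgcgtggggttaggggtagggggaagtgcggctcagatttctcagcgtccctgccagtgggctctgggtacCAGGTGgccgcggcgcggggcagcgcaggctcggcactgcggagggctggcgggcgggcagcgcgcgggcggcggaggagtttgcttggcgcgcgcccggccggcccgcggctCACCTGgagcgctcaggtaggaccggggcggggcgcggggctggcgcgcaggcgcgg
St3gal6, chr16:58524254-58524503, minus strand: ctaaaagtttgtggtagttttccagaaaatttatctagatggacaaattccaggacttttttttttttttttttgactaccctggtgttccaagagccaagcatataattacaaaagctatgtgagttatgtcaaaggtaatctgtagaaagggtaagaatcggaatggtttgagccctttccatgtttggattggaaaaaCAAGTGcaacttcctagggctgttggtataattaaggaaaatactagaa
Mgat5, chr1:127204736-127204985, plus strand: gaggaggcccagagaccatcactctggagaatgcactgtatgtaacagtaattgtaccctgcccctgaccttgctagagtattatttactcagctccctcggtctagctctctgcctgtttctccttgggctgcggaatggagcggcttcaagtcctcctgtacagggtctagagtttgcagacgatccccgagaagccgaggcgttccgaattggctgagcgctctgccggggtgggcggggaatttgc
St6gal1 and St3gal6 hold 1 E-box each in these windows, Galnt3 holds 2 and Mgat5 holds 0. Both E-boxes of Galnt3 have the letters CACCTG on one strand or the other. An E-box stood in 66.2% of all 32851 windows of this length in the table and in 62.3% of the 69 windows of tested member genes, of which 49 of 63 had an entry. CACCTG stood in 17.2% of all windows and 15.9% of member windows. An Egr motif (GCGTGGGCG) stood in 0.536% of all windows and an RBPJ motif (GTGGGAA) in 5.42%, and the 4 printed windows hold 0 of either. Both strands were searched for each motif, every CACCTG is also an E-box, and a match of letters is a description only.

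The 7 arrays were on 4 slides scanned on 2 days: Lig+ replicates 1 and 2 and Lig- replicates 1 and 2 on day 1, the other Lig+ arrays and Lig- replicate 3 on day 2. Source names on day 2 leave out DN4, which the description of the populations gives for both groups. Replicate numbers only name the arrays, and values below are listed in their order. Between 72.8% and 84.9% of probes were well above background in the DN4 channel and between 75.8% and 83.7% in the DN3 channel, and the number of arrays limits the precision. Of 8 T lineage marker genes, 8 were above background on every array. Of 7 markers of the DN3 stage, 6 fell in Lig+ cells and 7 in Lig- cells against DN3, among them Il2ra (-5.29 and -5.45 on the log2 scale) and Ptcra (-5.22 and -4.70). Markers of macrophages and monocytes were lower in DN4 cells as well: 8 of 10 fell in Lig+ and 9 in Lig-, among them Lyz2 (-3.05 ± 0.36 and -2.96 ± 0.39) and C1qa (-1.59 ± 0.30 and -1.97 ± 0.33), while Itgam rose in Lig+ (1.71 ± 0.23). Summed over the 10 genes, all above background on every array, the normalised intensity was 80423 to 102114 in the DN3 channel, 12445 to 35635 in Lig+ and 12317 to 22114 in Lig-. Of 8 genes of thymic epithelium and stroma 1 rose and 1 fell in Lig+ and 2 rose and 3 fell in Lig-. Epcam fell in both (-3.70 ± 0.16 and -2.45 ± 0.17), and Krt8 (-1.75 ± 0.40) and Krt5 (-0.52 ± 0.11) fell in Lig-. Col1a1 rose in both (0.89 ± 0.12 and 0.55 ± 0.14) and Col3a1 in Lig- (0.45 ± 0.11), each on its brightest probe. The sums over the 8 genes were 23930 to 40984 in DN3, 3168 to 7676 in Lig+ and 5742 to 9951 in Lig-. Of 8 granulocyte markers 5 fell in Lig+ and 2 in Lig-. Sums over 7 markers of NK and innate lymphoid cells were 18255 to 70711 in DN3, 103211 to 168975 in Lig+ and 398648 to 652230 in Lig-, and those over 7 dendritic cell markers 35918 to 45728, 80056 to 138173 and 33003 to 37085. The part of such cells in the ratios given below, falls such as those of B3galt5, Fut4 and the lectin gene Siglecf included, was not tested; B cell markers are given beside St6gal1. In sorted bulk cells, fewer cells of a type and less RNA per cell cannot be told apart.

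Values are log2 ratios of DN4 over DN3, in which 1 unit is a factor of 2. Fitted values are given ± SE from 1 limma fit over all 7 arrays (n = 4 Lig+ and n = 3 Lig-), and a call means an adjusted p under 0.05 (Benjamini-Hochberg over the 34888 probes). DN3 entered as 1 control sample and the ratio was tested against 0, so the spread among DN3 preparations is left out. In Lig+ cells 35 member probes were higher and 25 lower than in DN3 cells, which is 57.1% of the 105 tested; of all tested probes 36.6% were called, 17.7% higher and 18.9% lower. In Lig- cells 30 were higher and 26 lower, 53.3% of the members against 31.8% of all probes (16.3% higher and 15.5% lower). Without Lig+ replicate 1 the Lig+ count was 37 (16.1% of all probes were then called), and without Lig- replicate 1 the Lig- count was 36 (11.1%). Both comparisons rest on the same kind of DN3 RNA, so their values are set side by side only. The median of the members was 0.025 in Lig+ and 0.020 in Lig-, beside -0.00063 and -0.0032 over all probes. An absolute log2 ratio of at least 1 with a call and 1 direction on every array of the group was reached by 32 member probes in Lig+ (19 higher and 13 lower) and 39 in Lig- (26 higher and 13 lower). Of all tested probes 10.8% (5.33% higher and 5.46% lower) and 9.73% (5.22% higher and 4.51% lower) reached it. Probes of one gene are not independent, and 35 genes had 2 or more tested probes.

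**Figure D1:**
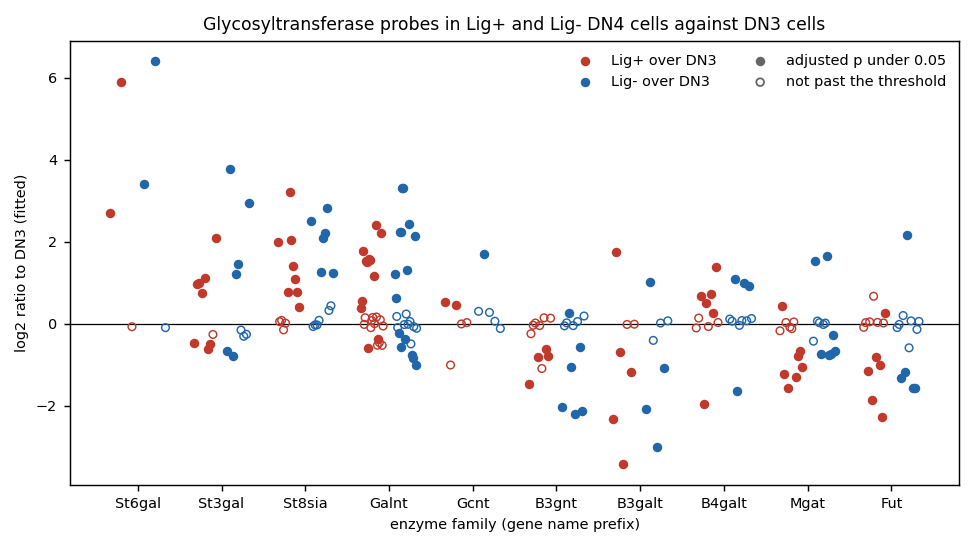
Fitted log2 ratios to DN3 (vertical axis) of the 105 tested probes by enzyme family (horizontal axis), for Lig+ cells in red and Lig- cells in blue; filled points had an adjusted p under 0.05. The St8sia family has 0 filled points below 0, the B3gnt family has 0 filled Lig+ points above 0, and St6gal1 has the highest points of either colour.

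The direction of the calls was not alike across families. In the St8sia family 8 of 12 tested probes rose in Lig+ and 6 in Lig-, and 0 fell in either. In the Galnt family 10 of 24 rose and 2 fell in Lig+, and 9 rose and 6 fell in Lig-. The St3gal family had 5 of 9 higher and 3 lower in Lig+ and 4 higher and 2 lower in Lig-. Downward calls prevailed among the B3gnt probes (4 lower and 0 higher of 11 in Lig+, 5 lower and 1 higher in Lig-), the B3galt probes (4 lower and 1 higher of 7, then 3 and 1), the Mgat probes (6 lower and 1 higher of 12, then 5 and 2) and the Fut probes (5 lower and 1 higher of 12, then 4 and 1). Upward calls prevailed among the B4galt probes (5 higher and 1 lower of 10 in Lig+, 3 and 1 in Lig-), and of 5 Gcnt probes 2 were higher in Lig+ and 1 in Lig-. Of all tested probes 17.7% were called higher and 18.9% lower in Lig+, and 16.3% and 15.5% in Lig-. Whether families differ from each other was not tested.

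**Figure D2:**
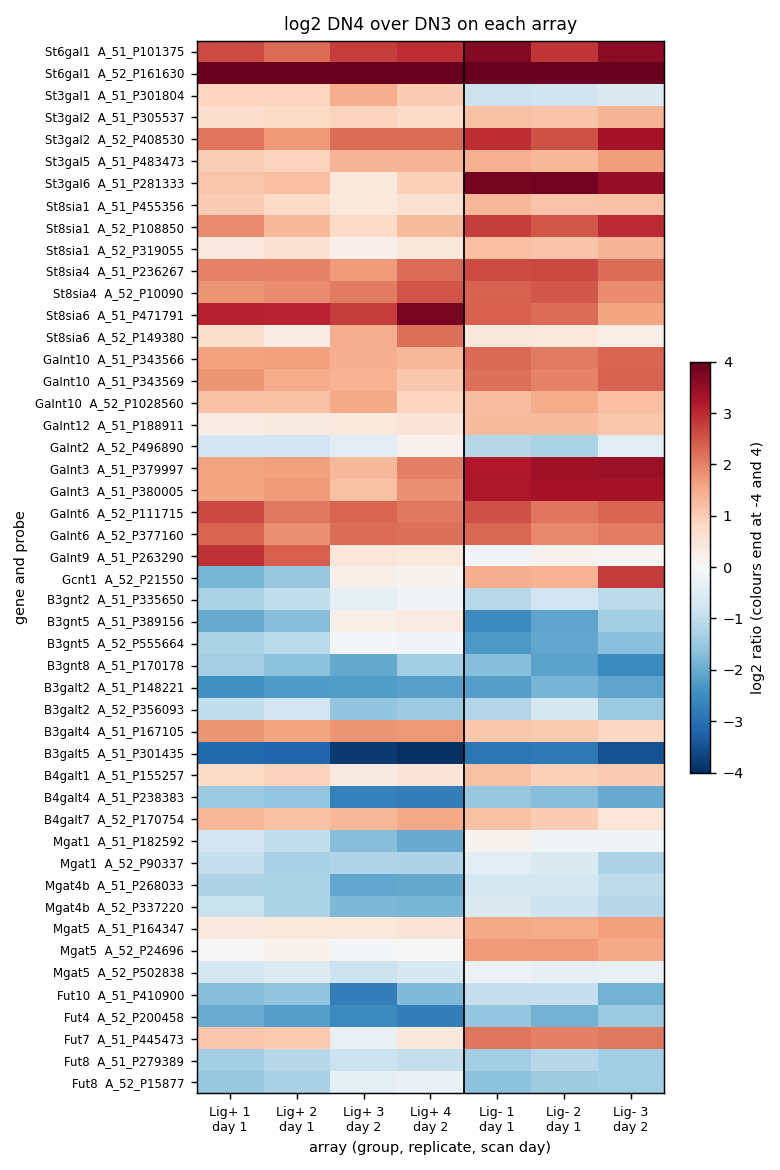
Log2 ratio of DN4 over DN3 on each of the 7 arrays (columns, with group, replicate and scan day) for the 48 probes described one by one (lines, ordered by family); red is higher in DN4, blue lower, and the colours end at -4 and 4. St6gal1, St8sia4 and Galnt6 are red on every array, B3galt2, B3galt5, Fut4 and B3gnt8 are blue on every array, and St3gal1 turns from red in Lig+ to blue in Lig-.

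St6gal1 adds sialic acid to galactose at the ends of N-glycans and so makes the ligand of the B cell lectin CD22. On 1 of its probes it gave the largest rise of all members in both DN4 populations. Its probe A_52_P161630 read 6.38, 4.47, 5.59 and 6.21 on the Lig+ arrays and 6.89, 5.05 and 6.81 on the Lig- arrays. The second replicate of either group was the lowest, every array was far above 0, and the groups overlapped. The fitted ratio was 5.90 ± 0.38 in Lig+ (59.7-fold, adjusted p = 8.33e-05) and 6.41 ± 0.42 in Lig- (85.1-fold, adjusted p = 0.000122). The second probe, A_51_P101375, read 2.60, 2.24, 2.78 and 2.96 on the Lig+ and 3.69, 2.85 and 3.58 on the Lig- arrays, again with overlap between the groups. Its fitted ratios were 2.69 ± 0.18 and 3.40 ± 0.20 (6.46-fold and 10.6-fold, adjusted p = 9.75e-05 and 8.23e-05). The St6gal1 probes thus shared the direction of the rise but not its size. On the second probe the rise was below that of St8sia6 in Lig+ (3.21) and of St3gal6 in Lig- (3.76). Each Lig- array shared a slide with the Lig+ array of the same number, and on all 3 of these slides Lig- was above Lig+ on both probes. In the fit over all arrays the difference of Lig+ from Lig- did not pass the test with either probe (-0.51 ± 0.54, adjusted p = 0.631, and -0.71 ± 0.26, adjusted p = 0.146). On scan day 1 alone these differences were -0.55 and -0.85, and on day 2 alone -0.91 and -0.71. A fit that adds the scan day as a term called both (-0.69 and -0.79, adjusted p = 0.0389 and 0.00657). It called 22.1% of all tested probes, beside 10.9% without that term. A fit with slide as a fixed block over the 3 shared slides also called both (-0.77 and -0.83, adjusted p = 0.0412 and 0.0142), with 20.5% of all probes called. With slide as a random block over all arrays (23.8% of all probes called) the second probe was called (-0.78, adjusted p = 0.0158) and the first was not (-0.67, adjusted p = 0.191). The related St6gal2 gave values between -0.097 and -0.075 on its tested probe, and its other probe was below background on every array.

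B cells are rich in St6gal1, and their markers were therefore read on the same arrays. Of 12 B cell markers 0 rose and 4 fell in Lig+ against DN3, and 4 rose and 2 fell in Lig-. Pax5 stood at -0.074 ± 0.061 and -0.065 ± 0.067 and Ms4a1 at 0.16 ± 0.095 and 0.26 ± 0.10 in Lig+ and Lig-, neither of them called. The 4 that rose in Lig- were Cd79a (0.71 ± 0.20), Blnk (1.07 ± 0.22), Ebf1 (0.88 ± 0.071) and Vpreb3 (1.65 ± 0.46). Summed over the 12 genes, the normalised intensity ran from 25042 to 34038 on the Lig+ arrays, 25391 to 37791 on the Lig- arrays and 45573 to 54298 in the DN3 channel, and 10 of the 12 were above background on every DN4 array. Of 6 plasma cell markers 3 rose and 3 fell in Lig+ and 3 rose and 2 fell in Lig-, with Irf4 (4.28) and Sdc1 (2.16) up and Mzb1 (-4.26) and Xbp1 (-2.17) down in Lig+. The part of such cells in the St6gal1 ratio was not tested.

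**Figure D3:**
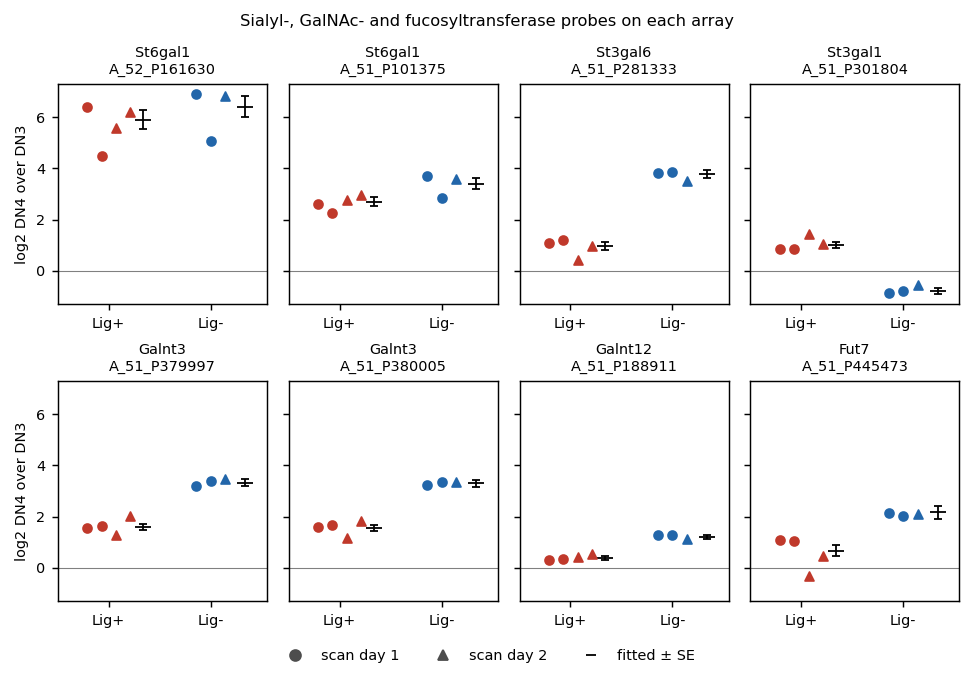
Log2 DN4 over DN3 (vertical axis) on each Lig+ array (red) and Lig- array (blue) for 8 probes, with circles for scan day 1, triangles for scan day 2 and a black bar for the fitted value ± SE. The groups overlap for both St6gal1 probes; they are apart for St3gal6, both Galnt3 probes, Galnt12 and Fut7, where Lig- is higher, and for St3gal1, which lies above 0 in Lig+ and below 0 in Lig-.

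Among the St3gal enzymes, which cap galactose with sialic acid in another linkage, St3gal6 and St3gal1 separated the DN4 populations most. St3gal6, an enzyme that takes part in making sialyl Lewis ligands of selectins, read 1.1, 1.21, 0.42 and 0.96 on the Lig+ arrays and 3.82, 3.85 and 3.52 on the Lig- arrays. The highest Lig+ array was far below the lowest Lig- array. It rose in both populations (0.97 ± 0.14, adjusted p = 0.00244, and 3.76 ± 0.16, 13.6-fold, adjusted p = 2.84e-05), and it was 6.93-fold lower in Lig+ than in Lig- (-2.79 ± 0.20, adjusted p = 0.00122). The difference was -2.68 on scan day 1 and -2.83 on day 2. The Lig+ rise lost its call without Lig+ replicate 1 (adjusted p = 0.0603).

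St3gal1, which sialylates core 1 O-glycans on T cell glycoproteins, went the other way. Its ratios were 0.86, 0.85, 1.45 and 1.03 on the Lig+ arrays and -0.86, -0.81 and -0.57 on the Lig- arrays. All Lig+ arrays were above 0 and all Lig- arrays below it. It rose in Lig+ (0.99 ± 0.11, adjusted p = 0.000831), fell in Lig- (-0.78 ± 0.12, adjusted p = 0.00429) and was 3.42-fold higher in Lig+ than in Lig- (1.78 ± 0.16, adjusted p = 0.00216). No other member probe was called in opposite directions in the comparisons with DN3. The Lig- fall lost its call without Lig- replicate 1 (adjusted p = 0.0734) and on scan day 2 alone (-0.57, adjusted p = 0.0584).

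St3gal2, which acts on core 1 O-glycans and gangliosides, rose on both of its probes. A_52_P408530 read 2.14, 1.74, 2.23 and 2.25 on the Lig+ and 2.94, 2.54 and 3.32 on the Lig- arrays, and A_51_P305537 read 0.68, 0.77, 0.90 and 0.75 and 1.19, 1.14 and 1.35. Every Lig- array was above every Lig+ array on both. The fitted rises were 2.10 and 2.94 on the first and 0.75 and 1.21 on the second (largest adjusted p = 0.000275). St3gal5, the synthase of ganglioside GM3, read 1.00, 0.89, 1.35 and 1.37 on the Lig+ and 1.42, 1.31 and 1.66 on the Lig- arrays, which overlapped. It rose by 1.12 ± 0.11 and 1.44 ± 0.12 (adjusted p = 0.000499 and 0.000346). The remaining St3gal genes went down where they were called: both St3gal3 probes fell in Lig+ (-0.63 and -0.49) and were not called in Lig-, and 1 of 2 St3gal4 probes fell in both (-0.46 and -0.66).

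The St8sia enzymes add sialic acid to sialic acid. St8sia6, which does so on O-glycans, gave the largest ratio of the family in Lig+ cells: A_51_P471791 read 3.09, 3.04, 2.76 and 3.80 on the Lig+ and 2.39, 2.25 and 1.59 on the Lig- arrays. The lowest Lig+ array stood above the highest Lig- array. It rose by 3.21 ± 0.21 (9.26-fold, adjusted p = 8.93e-05) and 2.10 ± 0.23 (4.29-fold, adjusted p = 0.000964), and the difference of the populations missed the threshold (1.11 ± 0.30, adjusted p = 0.068). A second probe, A_52_P149380, read 0.71, 0.30, 1.47 and 2.20 on the Lig+ and 0.44, 0.42 and 0.25 on the Lig- arrays, with the day 2 arrays highest in Lig+ and overlap between the groups; its DN3 signal was well above background on 4 of 7 arrays. It rose in Lig+ only at an adjusted p of 0.0338 (1.1 ± 0.31), which was lost under 7 alternatives, among them the omission of any of 5 arrays (Lig+ replicates 1 and 3 and each Lig- array); it was 0.50 on day 1, 1.83 on day 2 and 2.29 with Agilent's processed signals. On the third probe, A_52_P226214, DN3 was not well above background on any array, and the Lig+ signal was at least 1.66-fold above that floor (0.78 fitted, adjusted p = 0.00879).

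St8sia4, a polysialyltransferase, rose alike on both probes. A_51_P236267 read 1.99, 1.98, 1.71 and 2.23 on the Lig+ and 2.61, 2.65 and 2.24 on the Lig- arrays, with each Lig- array just above the Lig+ ones. A_52_P10090 read 1.78, 1.88, 2.09 and 2.52 and 2.35, 2.47 and 1.88, with overlap. The fitted rises were 2.00 ± 0.12 and 2.51 ± 0.13 on the first and 2.04 ± 0.16 and 2.21 ± 0.18 on the second (largest adjusted p = 0.000255), and the difference of the populations was not called on either. St8sia1, the synthase of ganglioside GD3, rose on all 3 probes in both populations and was lower in Lig+ than in Lig- on all 3. A_52_P108850 read 1.88, 1.31, 0.77 and 1.26 on the Lig+ arrays and 2.76, 2.50 and 2.98 on the Lig- arrays. A_51_P455356 read 1.00, 0.77, 0.42 and 0.61 and 1.34, 1.13 and 1.19, and A_52_P319055 read 0.39, 0.59, 0.19 and 0.44 and 1.19, 1.13 and 1.37. On each probe the lowest Lig- array was above the highest Lig+ array. The rises in Lig+ were 1.41, 0.77 and 0.39 and those in Lig- 2.82, 1.27 and 1.23. Their differences were -1.41 ± 0.23 (adjusted p = 0.0136), -0.49 ± 0.11 (0.0433) and -0.83 ± 0.13 (0.0115). The first lost its call without Lig- replicate 2 (adjusted p = 0.0556), the second without any 1 of 7 arrays except Lig+ replicate 2 (up to 0.16), and the third without replicate 1 of either group (up to 0.0752); the last also lost its Lig+ rise without Lig+ replicate 1 (adjusted p = 0.184), with slide as a random block (0.0568) and on the Lig+ arrays alone (0.0675). The difference on A_51_P455356 was also lost with the smaller normexp offset (0.0541) and with no dye term (0.0731). The tested probes of St8sia2, St8sia3 and St8sia5 were not called, and 2 of 3 St8sia3 probes were too dim to test.

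Galnt enzymes place the first sugar of mucin type O-glycans on serine and threonine, and different members prefer different sites. Galnt3, known for glycosylating the hormone FGF23, was the clearest of them. Its probes lie side by side: A_51_P379997 read 1.56, 1.63, 1.29 and 2.01 on the Lig+ and 3.20, 3.38 and 3.46 on the Lig- arrays, and A_51_P380005 read 1.57, 1.69, 1.17 and 1.84 and 3.25, 3.34 and 3.34. The lowest Lig- array was more than 1 unit above the highest Lig+ array on both. Galnt3 rose by 1.59 ± 0.12 and 1.56 ± 0.12 in Lig+ and by 3.32 ± 0.14 and 3.30 ± 0.13 in Lig- (10-fold and 9.87-fold, adjusted p = 2.78e-05 and 2.62e-05). It was 3.33-fold and 3.35-fold lower in Lig+ than in Lig- (adjusted p = 0.00306 and 0.00273), at -1.69 on day 1 and -1.81 on day 2 for the first probe. Galnt12 shared this order with smaller values, 0.29, 0.36, 0.43 and 0.52 on the Lig+ and 1.27, 1.27 and 1.12 on the Lig- arrays. It rose by 0.39 ± 0.069 and 1.21 ± 0.075 and had a difference of -0.82 ± 0.097 (adjusted p = 0.00506).

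Galnt10 rose on 3 probes in both populations. A_51_P343566 read 1.61, 1.64, 1.44 and 1.31 on the Lig+ and 2.26, 2.07 and 2.34 on the Lig- arrays, and A_51_P343569 read 1.76, 1.49, 1.40 and 1.08 and 2.20, 1.99 and 2.37. Lig- was above Lig+ without overlap on these. The third, A_52_P1028560, read 1.19, 1.16, 1.52 and 0.86 and 1.25, 1.48 and 1.20, with overlap. Rises in Lig+ were 1.53, 1.49 and 1.17, and in Lig- 2.24, 2.23 and 1.30 (largest adjusted p = 0.000699). With Agilent's processed signals the third probe, whose DN3 signal was well above background on 4 of 7 arrays, gave 2.37 and 2.32. The first probes were lower in Lig+ than in Lig- (-0.71 ± 0.12 and -0.73 ± 0.16, adjusted p = 0.0161 and 0.0385), which was lost on leaving out any array but Lig+ replicates 2 and 4 for the one and any array but Lig+ replicate 2 for the other (up to 0.0883 and 0.104).

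Galnt6 rose almost equally in both populations. A_52_P111715 read 2.65, 2.10, 2.34 and 2.12 on the Lig+ and 2.58, 2.15 and 2.34 on the Lig- arrays, and A_52_P377160 read 2.33, 1.83, 2.23 and 2.20 and 2.31, 1.91 and 2.04. The arrays of the groups interleave. The fitted rises were 2.40 ± 0.074 and 2.42 ± 0.081 on the first and 2.22 ± 0.089 and 2.13 ± 0.097 on the second (largest adjusted p = 3.72e-05), with differences of -0.019 ± 0.11 and 0.083 ± 0.13. Galnt9 was far apart between the scan days: it read 2.90, 2.40, 0.49 and 0.42 on the Lig+ arrays and -0.11, 0.15 and 0.058 on the Lig- arrays, so that only the Lig+ arrays of day 1 were high, although the groups did not overlap. The probe was well above background on 4 of 4 Lig+ arrays, 1 of 3 Lig- arrays and 3 of 7 DN3 channels. The Lig+ rise of 1.77 ± 0.43 (adjusted p = 0.0196) was 2.65 on day 1 and 0.46 on day 2, and it was lost without Lig+ replicate 1 (0.99, adjusted p = 0.342). Galnt2 read -0.76, -0.77, -0.42 and 0.18 on the Lig+ and -1.14, -1.28 and -0.46 on the Lig- arrays of A_52_P496890, with the day 2 arrays nearest to 0 and overlap between the groups. This probe fell in Lig- (-1.02 ± 0.22, adjusted p = 0.014; -1.21 on day 1 and -0.46, not called, on day 2), a call also lost without Lig- replicate 1 or 2 (adjusted p = 0.138 and 0.0578). The other Galnt2 probe fell in both populations (-0.59 and -0.58). Among the rest, Galnt1 rose in both (0.55 and 0.62), Galnt4 fell in Lig- on both probes (-0.37 and -0.76) and in Lig+ on the second (-0.37), Galnt7 fell in Lig- on 1 of 2 (-0.83), Galnt14 fell in Lig- on 1 of 2 (-0.23), and the tested probes of Galnt5, Galnt11 and Galnt13 were not called.

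Gcnt1 makes the core 2 branch of O-glycans, a known mark of T cell maturation and activation, and its probes disagreed. The probe A_52_P21550 read -1.84, -1.51, 0.25 and 0.14 on the Lig+ arrays and 1.45, 1.40 and 2.79 on the Lig- arrays. Every Lig- array was above every Lig+ array, and in both groups day 2 was above day 1. The Lig- rise was 1.70 ± 0.42 (adjusted p = 0.024), the Lig+ value -1.01 ± 0.38 was not called, and Lig+ was below Lig- (-2.71 ± 0.54, adjusted p = 0.0284; -3.10 on day 1 and -2.59 on day 2). The overlapping probes read 0.35, 0.25, 0.61 and 1.04 in Lig+ and 0.38, 0.28 and 0.29 in Lig- (A_51_P119670), and 0.14, 0.41, 0.67 and 0.93 and 0.25, 0.22 and 0.52 (A_52_P227137). They rose in Lig+ by 0.54 and 0.45, were not called in Lig-, and their differences of 0.24 ± 0.20 and 0.18 ± 0.17 were not called. The difference on A_52_P21550 was lost without replicate 1 of either group or Lig- replicate 3 (adjusted p up to 0.144) and became -3.85 with Agilent's processed signals (adjusted p = 0.16); the Lig- rise became 2.63 with these signals and was lost there (adjusted p = 0.125) and without Lig- replicate 1 or 3 (adjusted p = 0.289 and 0.105). This probe was well above background on 2 of 4 Lig+ arrays and 3 of 3 Lig- arrays. Gcnt2, which branches chains of the I antigen, was not called, and Gcnt3 was below background on every array.

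**Figure D4:**
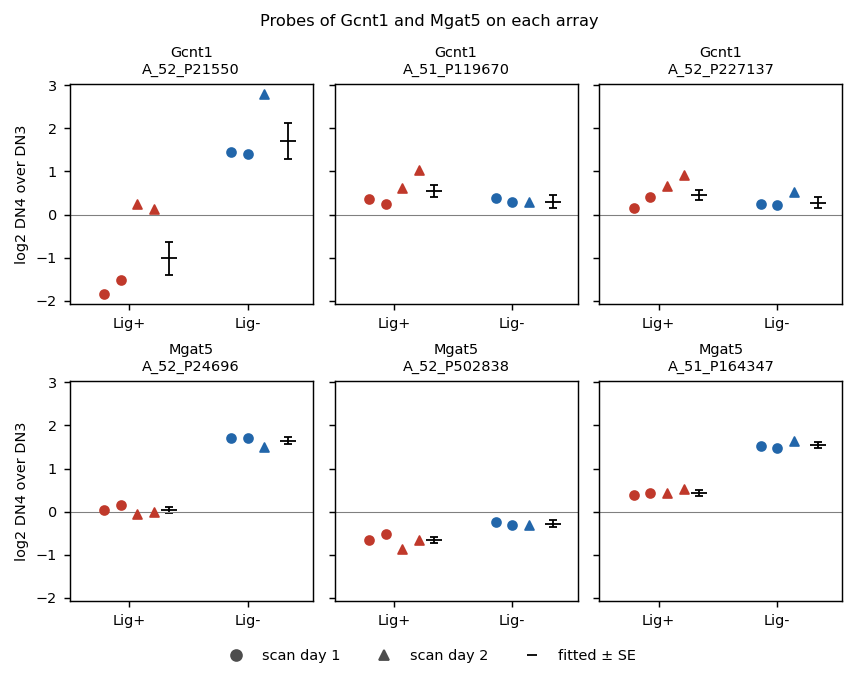
Log2 DN4 over DN3 (vertical axis) on each Lig+ array (red) and Lig- array (blue) for 3 probes of Gcnt1 (top) and 3 of Mgat5 (bottom), with circles for scan day 1, triangles for scan day 2 and a black bar for the fitted value ± SE. Only 1 Gcnt1 probe separates the groups widely, and the Mgat5 probe A_52_P502838 is below 0 on every array while A_51_P164347 is above it.

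B3gnt enzymes add N-acetylglucosamine and so lengthen chains of lactosamine. B3gnt5, which starts lacto-series glycolipids, fell. Its probe A_52_P555664 read -1.25, -1.06, -0.079 and -0.11 on the Lig+ and -2.30, -2.08 and -1.68 on the Lig- arrays, and A_51_P389156 read -2.01, -1.69, 0.24 and 0.33 and -2.55, -2.10 and -1.37. Lig+ was near 0 on the day 2 arrays of both probes, and the groups overlapped on the second probe only. The Lig- falls were -2.13 ± 0.21 and -2.22 ± 0.42 (adjusted p = 0.000662 and 0.00873), the second being -2.33 on day 1 and -1.37 on day 2. In Lig+ the first probe fell (-0.79 ± 0.20, adjusted p = 0.0211; -1.16 on day 1 and -0.097, not called, on day 2) and the second was not called (-1.09 ± 0.38). A_52_P555664 was higher in Lig+ than in Lig- by 1.34 ± 0.28 (adjusted p = 0.0307; 1.03 on day 1 and 1.58 on day 2), which was lost on leaving out any array but Lig+ replicate 2 (up to 0.127). Without Lig+ replicate 1 its Lig+ fall was lost (adjusted p = 0.274), as it was with no dye term (0.0567) and on the Lig+ arrays alone (0.069), and without Lig- replicate 1 the Lig- fall of A_51_P389156 was (adjusted p = 0.0782).

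B3gnt8, which extends branched N-glycans, read -1.32, -1.65, -2.03 and -1.40 on the Lig+ and -1.70, -2.13 and -2.55 on the Lig- arrays. All were below 0, with overlap. It fell in Lig+ (-1.48 ± 0.13, adjusted p = 0.000288) and in Lig- (-2.05 ± 0.14, adjusted p = 0.000163). B3gnt2, the main polylactosamine enzyme, read -1.25, -0.97, -0.36 and -0.15 and -1.10, -0.76 and -1.04 on A_51_P335650, with the Lig+ arrays of day 2 nearest to 0 and overlap between the groups. Its fall was -0.81 ± 0.16 in Lig+ (adjusted p = 0.00927; -1.11 on day 1 and -0.26, not called, on day 2; lost without Lig+ replicate 1 at 0.193) and -1.05 ± 0.18 in Lig- (adjusted p = 0.00574). The other B3gnt2 probe fell by less (-0.62 and -0.57). The probe named B3gnt1 in the files, whose transcript is now called B4gat1, rose in Lig- (0.26); B3gnt3, B3gnt4 and B3gnt7 were not called.

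B3galt enzymes add galactose in the linkage of type 1 chains and gangliosides. B3galt5, a type 1 chain enzyme, had the deepest fall of all members, with -3.11, -3.17, -3.82 and -4.07 on the Lig+ and -2.88, -2.86 and -3.48 on the Lig- arrays. Every array was below -2, the day 2 arrays were lowest and the groups overlapped. It fell in Lig+ (-3.43 ± 0.18, 10.8-fold lower, adjusted p = 4e-05) and in Lig- (-3.00 ± 0.20, 8-fold, adjusted p = 0.00013). B3galt2 fell too: A_51_P148221 read -2.43, -2.25, -2.22 and -2.16 on the Lig+ and -2.19, -1.85 and -2.10 on the Lig- arrays, and A_52_P356093 read -0.98, -0.78, -1.59 and -1.46 and -1.16, -0.69 and -1.47. The groups overlapped on both. The fitted values were -2.32 ± 0.066 and -2.09 ± 0.073 on the first (adjusted p = 8.33e-06 and 1.94e-05) and -1.17 ± 0.19 and -1.09 ± 0.21 on the second. These probes were dim in DN4 cells, and with Agilent's processed signals the Lig+ values were -3.68 and -2.43 and the Lig- value of the second -2.63; that Lig- call was lost without Lig- replicate 1 (adjusted p = 0.166).

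B3galt4, which makes the GM1 type of ganglioside, rose instead. It read 1.75, 1.59, 1.78 and 1.75 on the Lig+ arrays and 1.09, 1.06 and 0.83 on the Lig- arrays. The Lig+ arrays lay close together and all above the Lig- arrays. Rises were 1.74 ± 0.071 (3.34-fold, adjusted p = 1.88e-05) and 1.01 ± 0.078 (2.01-fold, adjusted p = 0.000235), and Lig+ was higher than Lig- by 0.73 ± 0.10 (adjusted p = 0.00841), which was lost without replicate 1 of either group (adjusted p = 0.0591 and 0.0592). B3galt6, of the proteoglycan linker, fell in Lig+ (-0.70), and B3galt1 was not called.

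B4galt enzymes add galactose to N-acetylglucosamine, glucose or xylose. B4galt7, which acts on the xylose of the proteoglycan linker, read 1.32, 1.17, 1.34 and 1.52 on the Lig+ and 1.18, 1.01 and 0.49 on the Lig- arrays. All were above 0, Lig- replicate 3 was the lowest and the groups overlapped. It rose by 1.38 ± 0.12 (adjusted p = 0.000284) and 0.93 ± 0.13 (adjusted p = 0.003, lost without Lig- replicate 1 at 0.0858). B4galt1, the main galactosyltransferase of N-glycans, read 0.74, 0.92, 0.36 and 0.51 and 1.18, 0.96 and 1.01 on A_51_P155257, with the Lig- arrays just above the Lig+ ones. It rose by 0.67 ± 0.10 and 1.08 ± 0.11 (adjusted p = 0.00294 and 0.000785); the Lig+ call was lost without Lig+ replicate 1 (adjusted p = 0.0588). A second B4galt1 probe rose by 0.72 and 1.00 and the last by 0.27 in Lig+ and was not called in Lig- (0.070). B4galt4 went down: it read -1.47, -1.54, -2.71 and -2.77 on the Lig+ and -1.53, -1.71 and -2.02 on the Lig- arrays, lower on day 2 and with overlap. The falls were -1.97 ± 0.23 (adjusted p = 0.000948) and -1.65 ± 0.25 (adjusted p = 0.00379, lost without Lig- replicate 1 at 0.0928). B4galt5, which makes lactosylceramide, rose in Lig+ (0.50), and B4galt2, B4galt3 and B4galt6 were not called.

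Mgat enzymes add the N-acetylglucosamine branches of N-glycans in order. Mgat1, which opens the way to hybrid and complex forms, read -0.75, -0.99, -1.69 and -2.01 on the Lig+ and 0.13, -0.099 and -0.12 on the Lig- arrays of A_51_P182592. The Lig+ arrays were all lower, those of day 2 most. A_52_P90337 read -0.92, -1.29, -1.22 and -1.23 and -0.42, -0.57 and -1.23, where Lig- replicate 3 lay among the Lig+ arrays. Both fell in Lig+ (-1.23 ± 0.18 and -1.07 ± 0.12, adjusted p = 0.00257 and 0.000674), the first being -0.87 on day 1 and -1.85 on day 2. In Lig- the first was not called (0.063 ± 0.20) and the second fell (-0.68 ± 0.13, adjusted p = 0.00839, lost without Lig- replicate 1 at 0.0962 and on the Lig- arrays alone at 0.0783). The difference of Lig+ from Lig- was -1.29 ± 0.26 on the first (adjusted p = 0.028, lost without any 1 array except Lig+ replicates 2 and 4, up to 0.118) and -0.39 ± 0.16 on the second, not called.

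Mgat4b, which adds a further branch, fell on both probes. A_51_P268033 read -1.25, -1.25, -2.09 and -2.04 on the Lig+ and -0.71, -0.71 and -1.02 on the Lig- arrays, without overlap, and A_52_P337220 read -0.91, -1.26, -1.80 and -1.83 and -0.59, -0.83 and -1.15, with overlap. Day 2 was lower than day 1 on both. Falls in Lig+ were -1.57 ± 0.17 and -1.31 ± 0.13 (adjusted p = 0.000635 and 0.000421) and in Lig- -0.75 ± 0.18 and -0.76 ± 0.14 (adjusted p = 0.023 and 0.00759); the Lig- calls were lost without Lig- replicate 1 (adjusted p = 0.294 and 0.155) and that of the first also without Lig- replicate 3 (adjusted p = 0.091). Mgat4a fell in both (-0.79 and -0.73), Mgat2, Mgat3 and the tested Mgat5b probe were not called, and Mgat4c was too dim to test.

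Mgat5, the branching enzyme whose glycans bind galectins on T cells, had probes called in opposite directions. A_51_P164347 read 0.40, 0.44, 0.43 and 0.52 on the Lig+ and 1.52, 1.48 and 1.64 on the Lig- arrays. A_52_P24696 read 0.030, 0.15, -0.060 and 0.0014 and 1.71, 1.71 and 1.50, and A_52_P502838 read -0.66, -0.53, -0.86 and -0.65 and -0.24, -0.31 and -0.30. On all 3 the lowest Lig- array was above the highest Lig+ array, but the last probe was below 0 throughout. In Lig- the first rose by 1.54 ± 0.066 and the second by 1.65 ± 0.077 (adjusted p = 3.04e-05 and 4.04e-05), while the third fell (-0.28 ± 0.080, adjusted p = 0.0399, lost under 12 of 21 alternatives, among them the omission of each Lig- array and of Lig+ replicates 1 and 4). In Lig+ the first rose (0.43 ± 0.060, adjusted p = 0.00191, lost without Lig+ replicate 1 at 0.0523 and with median centring at 0.0645), the second was not called (0.042 ± 0.070) and the third fell (-0.66 ± 0.073, adjusted p = 0.000723, at -1.01 with Agilent's processed signals). Lig+ was below Lig- on the first probes (-1.11 ± 0.085 and -1.60 ± 0.099, adjusted p = 0.00148 and 0.000922), and the third gave -0.38 ± 0.10 (adjusted p = 0.0685, not called). Which transcripts each probe binds was not tested.

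Fucosyltransferases add fucose. Fut7, which completes the selectin ligands of leukocytes, read 1.09, 1.04, -0.31 and 0.45 on the Lig+ and 2.15, 2.03 and 2.12 on the Lig- arrays. The Lig- arrays lay close together and all above the Lig+ arrays, of which those of day 2 were lower. It rose in Lig- (2.17 ± 0.25, 4.49-fold, adjusted p = 0.00114) and was not called in Lig+ (0.67 ± 0.23, adjusted p = 0.0624). Lig+ was below Lig- (-1.50 ± 0.32, adjusted p = 0.0349; -1.02 on day 1 and -2.05 on day 2), which was lost without Lig+ replicate 1 or 4 or any Lig- array (up to 0.132) and with median centring or Agilent's processed signals (adjusted p = 0.0588 and 0.059). Fut4, the other leukocyte enzyme of these ligands, moved the opposite way, with -1.97, -2.21, -2.56 and -2.76 on the Lig+ and -1.55, -1.88 and -1.49 on the Lig- arrays. Every array was below -1 and the Lig+ arrays were all lower. It fell in Lig+ (-2.29 ± 0.13, 4.88-fold, adjusted p = 4.61e-05) and in Lig- (-1.58 ± 0.14, adjusted p = 0.000371), and the difference missed the threshold (-0.71 ± 0.18, adjusted p = 0.0559). The probes of the pseudogene Fut4-ps1 were not called.

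Fut8, which adds the core fucose of N-glycans, fell on both probes. A_51_P279389 read -1.39, -1.14, -0.87 and -0.96 on the Lig+ and -1.38, -1.13 and -1.34 on the Lig- arrays, and A_52_P15877 read -1.51, -1.31, -0.35 and -0.26 and -1.65, -1.41 and -1.38. The groups overlapped, and the Lig+ arrays of day 2 were nearest to 0. Fitted values were -1.16 ± 0.082 and -1.33 ± 0.089 on the first (adjusted p = 0.000113 and 0.000137). On the second they were -1.0 ± 0.20 and -1.58 ± 0.22 (adjusted p = 0.00906 and 0.00252), the Lig+ value being -1.41 on day 1 and -0.30 on day 2 and its call lost without Lig+ replicate 1 (adjusted p = 0.183). Fut10 read -1.70, -1.59, -2.76 and -1.76 on the Lig+ and -0.96, -0.93 and -1.88 on the Lig- arrays, with replicate 3 lowest in each group and overlap. It fell in Lig+ (-1.85 ± 0.25, adjusted p = 0.00162) and in Lig- (-1.19 ± 0.27, adjusted p = 0.0177; -0.94 on day 1 and -1.88 on day 2; lost without Lig- replicate 1 or 3 at 0.165 and 0.0749). Its other probe fell in Lig+ (-0.82) and was not called in Lig- (-0.59). Fut11 rose slightly in Lig+ (0.27), Fut1 and Fut2 were not called, and all 5 Fut9 probes were too dim to test.

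The direct comparison of the DN4 populations gave 21 called member probes of 16 genes, 6 higher and 15 lower in Lig+ than in Lig-. That is 20% of the tested members, beside 10.9% of all tested probes (4.57% higher and 6.36% lower). The count was 53 on scan day 1 alone and 32 on day 2 alone, where 44% and 17.7% of all probes were called. It was 8 without Lig+ replicate 1, 8 without Lig- replicate 1, 10 without Lig- replicate 2, 11 without Lig- replicate 3 and 13 without Lig+ replicate 3, with 2.76%, 2.76%, 4.06%, 7.05% and 6.2% of all probes called. Replicate 1 of each group is its dye swap. If either is left out, the dye term takes up the other. Both omissions therefore gave the same differences of Lig+ from Lig- and are 1 check. With slide as a fixed or a random block the count was 34 or 36, beside 20.5% or 23.8% of all probes. On 20 of the 21 the Lig+ and Lig- arrays did not overlap. Over all members Lig+ lay wholly above Lig- on 10 probes and wholly below on 24, while among all tested probes 22.9% were free of overlap, 10.6% with Lig+ above and 12.3% with Lig- above. The members' median was -0.063 and that of all probes 0.0027. Besides the probes above, B4galt5 (0.54 ± 0.094), Galnt4 (0.45 ± 0.088) and Galnt14 (0.37 ± 0.085) were higher in Lig+ by smaller amounts (adjusted p = 0.0179, 0.0268 and 0.0416).

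**Figure D5:**
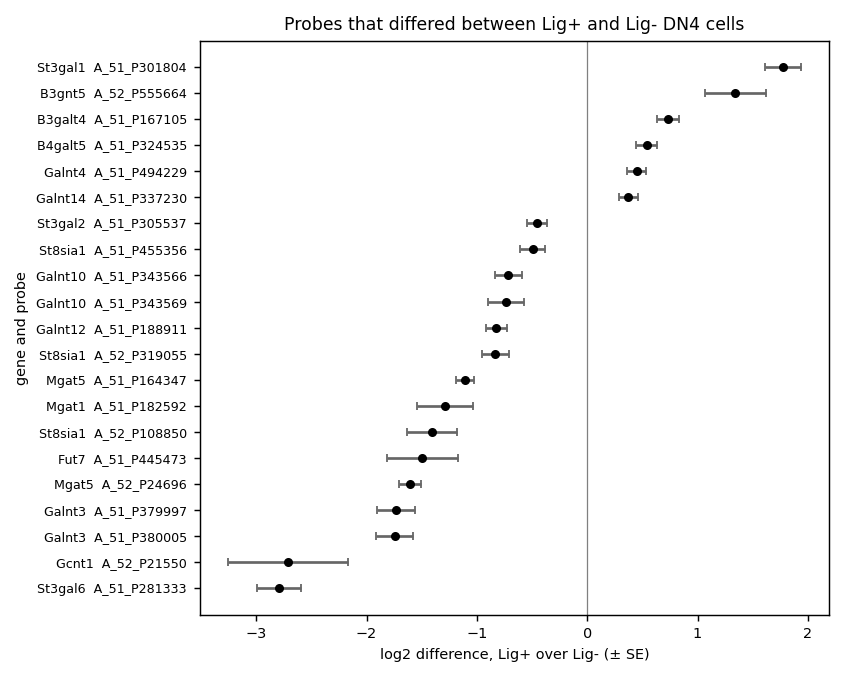
Log2 difference of Lig+ from Lig- (horizontal axis, ± SE of the fit) for the 21 member probes with an adjusted p under 0.05 (lines, gene and probe). Points right of 0 are higher in Lig+ cells; St3gal1 is the highest at 1.78, and St3gal6 (-2.79) and Gcnt1 (-2.71) are the lowest, the latter with the widest error.

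Of these 21 differences, 7 probes of 5 genes kept their call under every alternative that was run: St3gal6, St3gal1, both probes of Galnt3, Galnt12 and 2 probes of Mgat5. Each of the other 14 lost it on leaving out at least 1 single array, St3gal2 A_51_P305537 (-0.45 ± 0.094, adjusted p = 0.0308) with the omission of any array but Lig+ replicate 2. Median centring in place of loess kept 11 of the 21 calls; those of Gcnt1, Mgat1, St3gal2, Fut7, B4galt5, Galnt4, Galnt14, St8sia1 A_51_P455356 and both Galnt10 probes were lost (adjusted p from 0.0563 to 0.204). Agilent's processed signals kept 16 and lost Gcnt1, St3gal2, Fut7, Galnt10 A_51_P343569 and St8sia1 A_51_P455356 (adjusted p from 0.059 to 0.16). B4galt5, Galnt4 and Galnt14 were among the 14, with an adjusted p of up to 0.107, 0.123 and 0.208.

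Other genes of glycosylation were read from lists written with results of the series known, with 1 probe per gene and the same test. Beside the counts of every list below, 36.6% of all tested probes were called in Lig+, 31.8% in Lig- and 10.9% in Lig+ over Lig-. No list was tested against these shares. Sugar nucleotides are made in the cytosol and carried into the Golgi, and of 30 such genes 12 rose and 7 fell in Lig+, 7 rose and 5 fell in Lig-, and 4 were higher and 2 lower in Lig+ than in Lig-. Slc35d2, a carrier of sugar nucleotides, rose by 2.42 ± 0.11 and 1.34 ± 0.12. Its relative Slc35d1 fell in Lig+ and rose in Lig- (-0.53 ± 0.085 and 1.82 ± 0.093), and Slc35a3, the carrier of UDP-N-acetylglucosamine, did the reverse (0.72 ± 0.096 and -0.65 ± 0.11). Their differences were -2.34 ± 0.12 (adjusted p = 6e-04) and 1.37 ± 0.14 (0.00287). The probes of Slc35a3 disagreed: over its 3 tested probes the Lig+ ratio ran from -0.35 to 0.72, the Lig- ratio from -1.14 to -0.33 and the difference from -0.0045 to 1.37. In the St6galnac family, of 5 tested sialyltransferases, 1 rose and 2 fell in each comparison with DN3. St6galnac5 rose in Lig- (2.72 ± 0.14, beside 0.24 ± 0.13, not called, in Lig+, difference -2.48 ± 0.18, adjusted p = 0.00121). St6galnac3 (-1.45 ± 0.18 and -1.12 ± 0.20) and St6galnac6 (-0.66 ± 0.12 and -0.54 ± 0.13) fell in both. Over the 3 tested St6galnac6 probes the Lig+ ratio ran from -0.66 to -0.19 and the Lig- ratio from -0.54 to -0.088.

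Of 25 tested other Golgi glycosyltransferases 7 rose and 7 fell in Lig+, 5 rose and 4 fell in Lig-, and 3 were higher and 2 lower in Lig+ than in Lig-. B4galnt1, which makes the GM2 and GD2 type of gangliosides, rose on its brightest probe (2.59 ± 0.12 and 1.66 ± 0.13), and B4galnt2 fell (-2.46 ± 0.13 and -2.80 ± 0.15). The other B4galnt1 probe read 1.38 and 0.74. Lfng, the Fringe enzyme that modifies Notch receptors, was called higher in Lig+ and lower in Lig- (0.84 ± 0.23 and -0.98 ± 0.26, difference 1.82 ± 0.33). The Lig+ call was lost on leaving out any array but Lig+ replicate 2, and the Lig- call without Lig+ replicate 1 or any Lig- array. That of the difference was lost without Lig+ replicate 1 or 3 or any Lig- array. With slide as a random block both calls against DN3 were lost (adjusted p = 0.0584 and 0.0593). The Lig+ call was also lost on the Lig+ arrays alone (adjusted p = 0.133). Among 16 tested carbohydrate sulfotransferases, 1 rose and 3 fell in Lig+ and 3 rose and 2 fell in Lig-. Chst10, which makes the HNK-1 epitope, rose in Lig- (3.20 ± 0.085, adjusted p = 1.17e-05) beside 0.13 ± 0.077 in Lig+ (difference -3.07 ± 0.11, adjusted p = 0.000225), Chst15 rose in both (1.02 ± 0.13 and 1.91 ± 0.15), and Ndst2 rose in Lig- (1.23 ± 0.18).

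N-glycan assembly and trimming genes, 26 tested, had 5 higher and 3 lower in Lig+ and 6 higher and 4 lower in Lig-. Alg2, a mannosyltransferase of the precursor, fell in both (-1.88 ± 0.14 and -1.11 ± 0.15), Dad1, of the oligosaccharyltransferase, rose in both (1.06 ± 0.13 and 0.56 ± 0.14), and the trimming mannosidase Man1a rose in Lig- (1.52 ± 0.091) beside -0.044 ± 0.083 in Lig+ (difference -1.57 ± 0.12, adjusted p = 0.00138). Of 14 glycosidases 8 rose and 1 fell in Lig+ and 6 rose and 1 fell in Lig-, with a median of 0.44 and 0.25. On its brightest probe Man2b1 rose in both (0.92 ± 0.11 and 1.09 ± 0.12), but its other probe read 0.014 and 0.24. Fuca2 was called higher in Lig+ and lower in Lig- on its brightest probe (0.61 ± 0.097 and -0.60 ± 0.11), and its other probe read 0.41 and -0.087. Of 18 tested lectins and selectins, which read these glycans, 4 rose and 4 fell in Lig+ and 3 rose and 3 fell in Lig-. The galectins Lgals7 (2.65 ± 0.16) and Lgals3 (1.71 ± 0.26) rose in Lig+, where they were above Lig- by 2.15 ± 0.22 and 2.23 ± 0.37 (adjusted p = 0.00327 and 0.0158), and Siglecf fell in both (-1.31 ± 0.25 and -1.35 ± 0.27). Siglecf was well above background in DN4 cells on 1 of 4 Lig+ and 1 of 3 Lig- arrays, which limits the size of its fall. Over the alternatives its ratio ran from -2.69 to -0.76 in Lig+ and from -2.67 to -0.74 in Lig-. Without Lig+ replicate 1 the Lig+ calls of St6galnac6, Slc35d1, Fuca2, Lgals3, Siglecf and Chst15 were lost (adjusted p from 0.0501 to 0.117). Without Lig- replicate 1 the Lig- calls of St6galnac3, St6galnac6, Slc35a3, Alg2, Dad1, Fuca2, Siglecf and Ndst2 were lost (adjusted p from 0.0576 to 0.274). The Lig- call of Dad1 was lost under 8 of 21 alternatives, among them median centring and the omission of any Lig- array or of Lig+ replicate 1 or 3. That of St6galnac6 was lost under 5, among them the omission of any Lig- array or of Lig+ replicate 1. That of Siglecf was also lost without Lig- replicate 2 (adjusted p = 0.0527). The difference of Lgals3 was lost without replicate 1 of either group or Lig- replicate 2 (adjusted p up to 0.0858).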

How the data were processed

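Each array compared DN4 RNA in one dye with DN3 RNA in the other; DN4 carried Alexa 647 on the first array of each group and Alexa 555 on the rest. Scanner output had been made by the authors with Agilent Feature Extraction 9.5.1.1 (4 arrays) or 9.5.3.1 (3 arrays), per the file headers. The deposited intensity values were mean spot signals, local background and processed signals. The authors' deposited log10 ratios equalled those of the scanner files, turned to DN4 over DN3, and have a median of 0 on every array. Genome build of the probe positions: not given in the sources used here.

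Mean signals were corrected with normexp (offset 50) and normalised by loess within arrays in limma 3.58.1 (R 4.3.3), with control spots at weight 0 and outlier spots (0.354%) left out. A probe had to be well above background in 1 or both channels of 3 or more of the 7 arrays, and was fitted with Lig+, Lig- and dye terms (lmFit, eBayes) and adjusted by Benjamini-Hochberg. The pipeline was tested on simulated data. Values on every array are given for St6gal1, for called probes whose absolute log2 ratio reached 1 with the same sign on all arrays of a group, for the 10 largest called Lig+ against Lig- differences, and for genes with calls in opposite directions; other members named singly were chosen after their values were seen. Alternatives covered background, normalisation, filter, dye, slide, scan day and each array. The members and lists were chosen with earlier results of these data known. A probe not above background in DN3 on any array has a bound only, against the lowest signal of probes well above background. The probe named B3gnt1 matched the current symbol B4gat1. Of each glycosylation list, up to 3 called genes with the largest change are named, by their brightest probe; some list genes are not reported here.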

Additional observations from a re-analysis of the deposited data

Results flagged for a closer look

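A single Lig+ value stood apart from the other 3 on 2 of the 48 probes described one by one, by a gap test that chance alone passes in about 1 of 20 groups. B3galt4 read 1.59 on Lig+ replicate 2, where the nearest Lig+ array read 1.75. Fut10 (A_51_P410900) read -2.76 on Lig+ replicate 3, where the nearest read -1.76. Groups of 3 arrays, and so all Lig- groups, were not tested this way.

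Among the probes with values on every array, 18 had ratios to DN3 that differed between Lig+ and Lig- by the test of the difference itself (limma, adjusted over all tested probes). In Lig+ the ratio was higher for St3gal1 (1.78), B3gnt5 (1.34 on A_52_P555664) and B3galt4 (0.73). It was lower for St3gal6 (-2.79), Gcnt1 (-2.71 on A_52_P21550), Galnt3 (-1.73 and -1.74), Mgat5 (-1.60 on A_52_P24696 and -1.11 on A_51_P164347), Fut7 (-1.50), St8sia1 (-1.41 on A_52_P108850, -0.83 on A_52_P319055 and -0.49 on A_51_P455356), Mgat1 (-1.29 on A_51_P182592), Galnt12 (-0.82), Galnt10 (-0.71 on A_51_P343566 and -0.73 on A_51_P343569) and St3gal2 (-0.45 on A_51_P305537).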

How the results depend on the processing

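The number of member probes called was 60 in Lig+ over DN3, 56 in Lig- over DN3 and 21 in Lig+ over Lig-. With 1 array left out it ran from 37 to 60, from 36 to 56 and from 8 to 27 in these comparisons; fewer samples entered each such fit. The 21 differences became 12 with median centring in place of loess, 34 with slide as a fixed block, 36 with slide as a random block, 53 on scan day 1 alone and 32 on scan day 2 alone; the cause was not tested. The share of all probes called moved with these counts, from 10.9% to 6.92%, 20.5%, 23.8%, 44% and 17.7%, and with 1 array left out it ran from 2.76% to 14.2%. The other alternatives kept each count within 1.5 times of its value.

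Of 157 results on single probes (109 of members, 48 of list genes), 0 reversed under any alternative. Leaving out Lig+ replicate 1 or Lig- replicate 1, the arrays with DN4 in Alexa 647, took the call from 38 and 41 of them. Either omission leaves 1 array of that dye, which the dye term takes up. For Lig+ over Lig- these omissions are thus the same check. Scan day as a fixed term, scan day 1 alone, keeping outlier spots and either other filter took the call from 0. Scan day as a term and scan day 1 alone called more of all probes than the main fit, and so were less able to lose a call. Against DN3, scan day 1 alone called 64.3% in Lig+ and 63.9% in Lig-. The scan day term called 48.1% and 41.1%, beside 36.6% and 31.8% in the main fit. Against DN3, the single member results cover only called probes among the 48 described one by one, not all called members. Of these, 34 of 43 in Lig+ over DN3 and 33 of 45 in Lig- over DN3 kept their call under all alternatives run. Of the 21 differences, all of them covered, 7 did. Of all 60 members called in Lig+ over DN3, 37 kept their call without Lig+ replicate 1. Of all 56 called in Lig- over DN3, 36 kept it without Lig- replicate 1. Signal near background limits the size of some falls: with Agilent's processed signals B3galt2 A_51_P148221 read -3.68 in Lig+ in place of -2.32. No paired analysis was possible by replicate number, because the labels carry none; arrays could be paired by slide, which each Lig- array shared with 1 Lig+ array, and the fits with slide as a block given above are that analysis.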
